A study of Mus musculus with 15 samples.

Results

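The 10 genes described here are the ones by which endothelial cells, the cells that line blood vessels, are usually recognised: Pecam1, Cdh5, Esam, Tek, Tie1, Erg, Emcn, Plvap, Vwf and Egfl7. They were chosen by name, through the Entrez Gene ID that each probe set carries, and all 10 were found among the 25206 probe sets of the array, with 1 probe set each. Their levels were read in 15 mouse samples of a study in which induced pluripotent stem cells (iPSC) were directed into smooth muscle, on Affymetrix Mouse Gene 2.0 ST arrays. The iPSC line and the aortic cells both carry Acta2hrGFP, a green fluorescent reporter (GFP) driven by the gene of smooth muscle actin. The 5 groups, with 3 samples each, were aortic GFP+ smooth muscle cells taken from mice, iPSC at day 0, cells sorted at day 5 as Kdr+ (Flk1, a VEGF receptor), and GFP+ and GFP- cells sorted at day 13. All cultured samples came from the 1 reporter line, and the age and strain of the mice are not given in the sources used here. No group was labelled endothelial.

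Endothelial cells hold together through junctional adhesion proteins, chiefly VE-cadherin, and quiescence of the vessel wall is kept by angiopoietin ligands that act on the receptor TEK, with TIE1 as its partner. The identity of the cells is maintained by transcription factors of the ETS family, among them ERG, whose binding core is the sequence GGAA. Several of the 10 genes are also known outside the endothelium: Pecam1 and Vwf in platelets or their precursors, Pecam1 on leukocytes and on mouse pluripotent cells, and Erg in mesenchymal and cartilage lineages.

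The values are log2 levels, and a level is compared here only within a gene, since probe sets differ in brightness. The 3 samples of a group were labelled biological triplicates, and the labels do not say whether they were separate cultures or animals. The p-values therefore measure only the spread among such samples. For each gene that spread was pooled over all 5 groups and moderated, so it is not that of the 2 groups compared alone. Kdr, the gene of the day 5 sort, averaged 3.24 at day 0, 9.64 at day 5, 5.99 in day 13 GFP+ cells and 6.3 in day 13 GFP- cells, and 4.61 in aortic cells. Acta2 averaged 11.32 in day 13 GFP+ and 10.67 in day 13 GFP- cells, a difference of 0.65 that did not pass the test (adjusted p = 0.151, limma with Benjamini-Hochberg adjustment over all probe sets). The 2 sorts did not overlap in Acta2, which was higher in GFP+ cells by 1.06, 0.47 and 0.42 in the 3 samples of equal number. With that number as a block the adjusted p was 0.146 over all cultured samples and 0.0362 on the day 13 samples alone, fits added after the data were seen. The mean level of 10 smooth muscle markers was 10.17 to 10.39 in the aortic samples, 7.22 to 7.46 in day 13 GFP+ samples and 6.65 to 6.95 in day 13 GFP- samples. The mean over the 10 endothelial genes was 5.48 to 6.02 in aortic samples, 4.55 to 4.67 at day 0, 3.71 to 3.95 at day 5, 4.16 to 4.26 in day 13 GFP+ samples and 4.76 to 4.97 in day 13 GFP- samples. The deposited table has no calls of presence, and a low level is not shown to lie above background. In a sample of many cells, fewer cells of a type and less RNA per cell cannot be told apart.

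**Figure D1:**
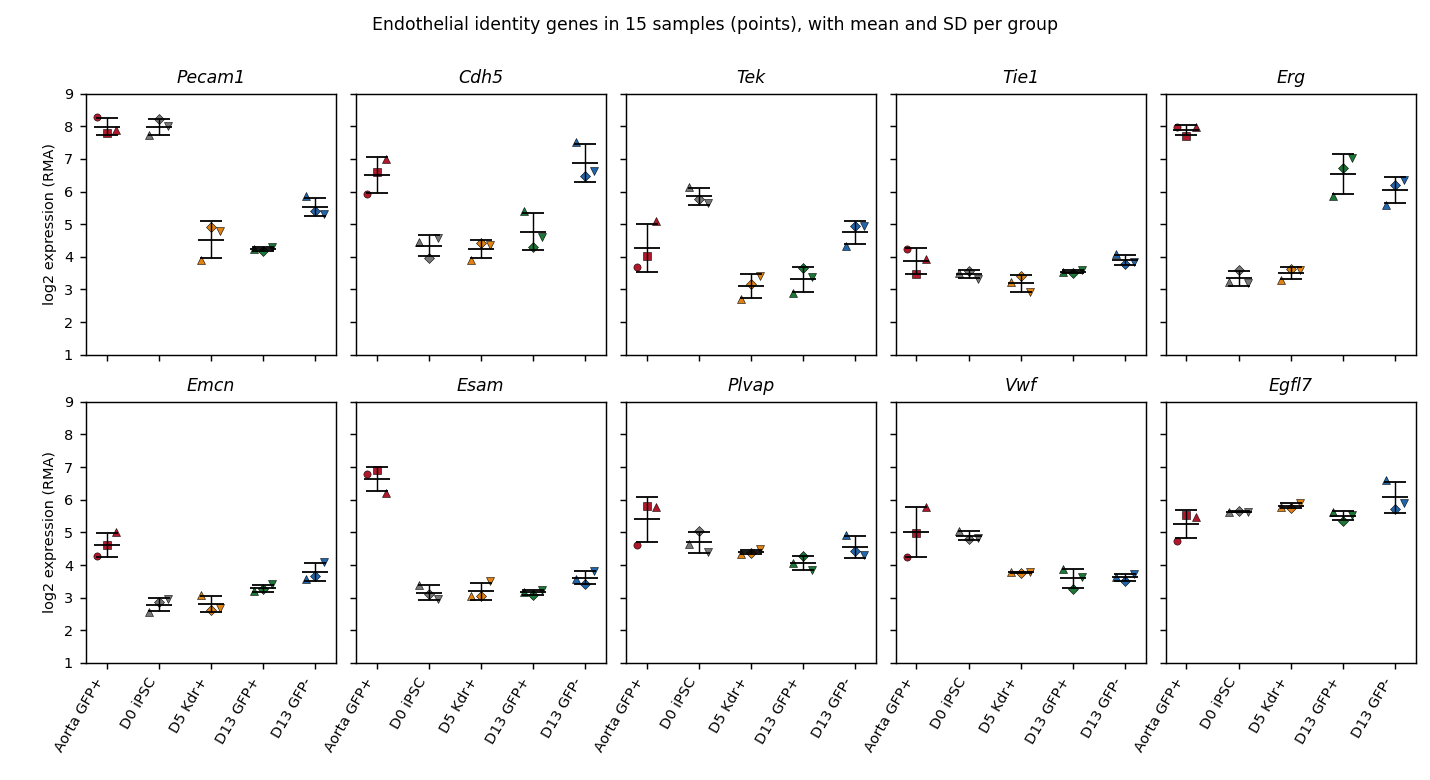
Level of each of the 10 endothelial genes (y axis, log2 RMA value) in each sample (points, marker shape by sample number) of the 5 groups (x axis), with the group mean (wide bar) and the SD (error bar, n = 3). Erg sits at 5.58 or higher in every day 13 and aortic sample and at 3.63 or lower at day 0 and day 5, whereas Pecam1, Tek and Vwf stand higher at day 0 than at day 5.

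Start regions were available for Egfl7, Emcn, Tek, Tie1 and Erg in the RefSeq promoter table (GRCm38.p6), 9 windows in all, each with 250 bases before and 50 after a transcript start. The 3 windows of Erg are shown because Erg carried the 1 call between day 13 GFP+ and day 5 cells, and those of Tek and Emcn because both genes moved with stage or sort. Tie1 moved with stage too, and its window and those of Egfl7 are given by count only. The windows lie at chr16:95586544-95586843, chr16:95530316-95530615 and chr16:95459299-95459598 for Erg (minus strand), chr4:94739039-94739338 for Tek and chr3:137340828-137341127 for Emcn (both plus strand). Each is written 5′ to 3′ on the gene's strand, and capitals mark the ETS core GGAA or its reverse, TTCC.
Erg, first start: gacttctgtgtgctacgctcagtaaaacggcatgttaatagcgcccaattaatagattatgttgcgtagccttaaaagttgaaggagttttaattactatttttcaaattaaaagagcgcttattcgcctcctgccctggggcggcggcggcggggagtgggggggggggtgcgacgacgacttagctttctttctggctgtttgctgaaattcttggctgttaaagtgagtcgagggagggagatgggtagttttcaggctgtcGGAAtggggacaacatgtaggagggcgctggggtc
Erg, middle start: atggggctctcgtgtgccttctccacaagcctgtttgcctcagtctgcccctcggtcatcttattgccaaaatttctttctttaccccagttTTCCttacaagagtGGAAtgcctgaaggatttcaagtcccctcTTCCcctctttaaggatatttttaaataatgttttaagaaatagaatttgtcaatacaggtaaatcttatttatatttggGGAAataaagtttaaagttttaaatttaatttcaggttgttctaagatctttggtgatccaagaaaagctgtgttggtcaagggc
Erg, last start: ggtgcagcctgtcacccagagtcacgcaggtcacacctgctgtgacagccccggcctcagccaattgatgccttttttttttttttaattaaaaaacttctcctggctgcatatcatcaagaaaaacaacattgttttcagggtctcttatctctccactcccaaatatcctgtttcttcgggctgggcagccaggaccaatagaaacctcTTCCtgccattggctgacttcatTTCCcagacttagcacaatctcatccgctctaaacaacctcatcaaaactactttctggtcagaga
Tek: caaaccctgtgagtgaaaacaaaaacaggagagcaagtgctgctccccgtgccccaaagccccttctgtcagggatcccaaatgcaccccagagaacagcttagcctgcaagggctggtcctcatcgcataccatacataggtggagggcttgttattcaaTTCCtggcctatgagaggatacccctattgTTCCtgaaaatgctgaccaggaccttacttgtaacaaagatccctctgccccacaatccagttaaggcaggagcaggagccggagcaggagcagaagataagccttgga
Emcn: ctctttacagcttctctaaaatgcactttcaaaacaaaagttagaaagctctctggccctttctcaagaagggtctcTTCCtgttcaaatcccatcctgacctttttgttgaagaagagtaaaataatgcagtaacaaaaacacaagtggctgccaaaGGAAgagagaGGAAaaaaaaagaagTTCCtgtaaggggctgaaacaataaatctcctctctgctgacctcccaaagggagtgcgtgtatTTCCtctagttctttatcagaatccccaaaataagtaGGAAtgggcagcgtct
GGAA was counted on both strands 1, 4 and 2 times in the Erg windows, 2 times in the Tek window and 6 times in the Emcn window. In the windows not shown it was counted 9 times for Tie1 and 5, 4 and 1 times for Egfl7. The core is common: 96% of the 32851 windows in the table hold it at least once, with a median of 3. The longer form AGGAAG, which overlaps the core, occurred 2 times in the Emcn window and once in the last Erg window. It occurred 2 times in the Tie1 window and 3, 2 and 0 times in the Egfl7 windows, and 35.4% of all windows hold it. CCGGAA was in none of the 9 windows and is in 14.9% of all. AGATAA, a form bound by GATA factors, occurred once in the Tek window and once in the last Erg window, against 11.2% of all windows. These matches describe letters in a window and are no evidence of binding.

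The day 5 Kdr+ cells were set against day 0 iPSC to follow the genes from pluripotent cells into mesoderm. Of the 10 genes, 0 rose and 3 fell at an adjusted p under 0.05, against a background of 14.9% of all probe sets that rose and 13.9% that fell. In 4 genes the samples of the 2 groups did not overlap, as in 46% of all probe sets. The 3 that fell were Pecam1, Tek and Vwf, so the day 0 cells carried more message of these endothelial genes than the Kdr+ cells did. Pecam1, an adhesion molecule of endothelial junctions, stood at 3.89, 4.92 and 4.78 in the day 5 samples, against 7.74, 8.23 and 8.0 in the day 0 samples. The groups lay far apart, and the difference of -3.46 (SE 0.234, limma adjusted p = 1.64e-08) is 11-fold. Tek, the angiopoietin receptor, was at 2.70, 3.17 and 3.42 at day 5, against 6.13, 5.78 and 5.64 at day 0. No sample of one stage reached the other, with a difference of -2.75 (SE 0.314, limma adjusted p = 5e-06). Vwf, the multimeric adhesion protein stored by endothelial cells and platelets, was at 3.78, 3.76 and 3.79 at day 5 and 5.05, 4.81 and 4.83 at day 0, and fell by 1.12 on the log2 scale (SE 0.267, limma adjusted p = 0.0042).

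The other 7 genes gave no call between day 5 and day 0, among them Cdh5, the gene of VE-cadherin, with a difference of -0.10 and a 95% interval of -0.80 to 0.60. Erg averaged 3.51 ± 0.183 at day 5 and 3.34 ± 0.225 at day 0 (SD, n = 3), a difference of 0.17 with an interval of -0.37 to 0.72. Some relatives of Erg moved in this step, in which Erg did not pass the test. Fli1, an ETS factor of blood and endothelium, averaged 7.0 at day 5 and 4.15 at day 0 (difference 2.85, SE 0.312, limma adjusted p = 3.3e-06). Ets1 averaged 6.54 at day 5 and 3.72 at day 0 (difference 2.81, SE 0.18, limma adjusted p = 8.8e-09). Etv2, the ETS factor that opens the blood and endothelial programme in the mouse embryo, rose by 2.00 (limma adjusted p = 6.75e-06; this gene was chosen after its values were seen). The other ETS factors read, chosen after their values were seen, did not all go this way. Etv6 averaged 7.09 at day 5 and 5.8 at day 0, Elk3 5.03 and 4.81, and Ets2 5.95 and 6.38. Of the 19 endothelial transcription factors other than Erg, 5 rose and 3 fell. The largest falls were in Klf4 (-4.09) and Klf2 (-2.76), which pluripotent cells also use. Of 10 megakaryocyte and platelet markers 0 rose and 0 fell, and of 11 measured leukocyte markers 6 fell, with a mean level of 3.38 to 3.44 at day 5 and 4.44 to 4.54 at day 0. Of 10 pluripotent markers 0 rose and 9 fell, with a mean level of 4.68 to 4.78 at day 5 and 8.03 to 8.04 at day 0. Pecam1 is also a gene of mouse pluripotent cells and of leukocytes. The part of these marker lists in the falls of Pecam1, Tek and Vwf was not tested. The median difference over the 10 genes was -0.19, against -0.01 over all probe sets.

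The day 13 GFP- cells, which were negative for the smooth muscle reporter, were set against the day 5 Kdr+ cells. Of the 10 genes 6 rose and 0 fell, against backgrounds of 12% of all probe sets that rose and 13.9% that fell. In 7 genes the groups did not overlap, as in 39.6% of all probe sets. The rise took in junction genes, both TIE receptors, Erg and the sialomucin gene Emcn, while Esam, Plvap, Vwf and Egfl7 gave no call. Cdh5 was at 7.53, 6.47 and 6.62 in the GFP- samples, against 3.91, 4.43 and 4.37 at day 5. Every GFP- sample stood above every day 5 sample by at least 2 on the log2 scale, and the difference was 2.64 (SE 0.329, 6.23-fold, limma adjusted p = 1.68e-05). Erg was at 5.58, 6.19 and 6.34 in GFP- samples and 3.30, 3.63 and 3.61 at day 5, which gave a difference of 2.52 (SE 0.256, limma adjusted p = 2.15e-06). Tek was at 4.34, 4.96 and 4.94 in GFP- samples and 2.70, 3.17 and 3.42 at day 5, a difference of 1.65 (SE 0.314, limma adjusted p = 0.000801). This return left Tek below the day 0 samples, whose lowest value was 5.64. Pecam1 rose by 0.99 (SE 0.234, limma adjusted p = 0.00433), to 5.32 to 5.85 in the GFP- samples against 3.89 to 4.92 at day 5, and likewise stayed below day 0. Emcn, an anti-adhesive sialomucin of capillaries and veins, rose by 0.98 (SE 0.192, limma adjusted p = 0.00105) and Tie1 by 0.71 (SE 0.177, limma adjusted p = 0.00627). In both genes all 3 GFP- samples lay above all 3 day 5 samples. The median difference over the 10 genes was 0.84, against -0.03 over all probe sets.

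Esam, a junctional immunoglobulin protein, averaged 3.61 ± 0.201 in GFP- cells and 3.20 ± 0.258 at day 5 (SD, n = 3), with an adjusted p of 0.134. Plvap, which forms the diaphragms of fenestrae, differed by 0.15 and Vwf by -0.15, with 95% intervals of -0.43 to 0.73 and -0.72 to 0.42. Other genes of the endothelium rose in the same step. Of 20 other surface and secreted genes 11 rose and 0 fell, led by Calcrl (3.15), the receptor of adrenomedullin and CGRP, with Ace (2.27), Adgrl4 (2.26) and Cd34 (1.93). Of 11 other junction and adhesion genes 6 rose and 0 fell, led by Vcam1 (2.59). Of the 19 other transcription factors 7 rose and 3 fell. Elk3, an ETS repressor, rose by 2.22, and Etv2 fell by 1.17. Markers of other cell types rose as well: 9 of 12 endoderm and epithelial markers, with a mean level of 6.46 to 6.68 in GFP- samples and 4.98 to 5.06 at day 5, and 8 of 10 smooth muscle markers. Their part in the rise of the endothelial genes was not tested.

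The day 13 GFP+ cells were set against the same day 5 samples, so the day 5 values enter both comparisons. Of the 10 genes 1 rose and 0 fell, against backgrounds of 14.3% and 16.9% of all probe sets. In 5 genes the groups did not overlap, as in 45.3% of all probe sets. The gene was Erg, at 5.85, 6.71 and 7.04 in GFP+ samples against 3.30, 3.63 and 3.61 at day 5. The groups were well apart, with a difference of 3.02 (SE 0.256, 8.1-fold, limma adjusted p = 1.77e-07). Cdh5 was at 5.4, 4.30 and 4.62 in GFP+ samples and 3.91, 4.43 and 4.37 at day 5. These overlap, and the difference of 0.54 (SE 0.329, limma adjusted p = 0.279) has a 95% interval of -0.17 to 1.24. Pecam1 and Tek differed by -0.29 and 0.21, with adjusted p of 0.45 and 0.727. Emcn, at 3.21 to 3.41 in GFP+ samples and 2.63 to 3.08 at day 5, differed by 0.50 and just missed the threshold (SE 0.192, limma adjusted p = 0.064). With array weights 3 rose and 1 fell, with 40.6% of all probe sets called against 31.2% without weights. Leaving out day 5 sample 3 made 2 rise and 1 fall, with 27.4% called. The median difference over the 10 genes was 0.09, against 0 over all probe sets. Other endothelial genes rose in GFP+ cells too. Of the 20 surface and secreted genes 6 rose and 1 fell, among them Ace (3.13), Cd34 (1.97) and Podxl (-3.16). Of the 11 other junction and adhesion genes 4 rose and 0 fell, led by Vcam1 (2.97) and Icam1 (2.09). Between the 2 sorts Ace, Cd34 and Vcam1 differed by 0.86, 0.04 and 0.39 and gave no call, except that Ace passed with the sample number as a block on the day 13 samples alone (limma adjusted p = 0.0172). Of the 19 other endothelial transcription factors 6 rose and 3 fell, including Elk3 (2.38), Prox1 (-1.67) and Etv2 (-1.66). All 10 smooth muscle markers rose.

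**Figure D2:**
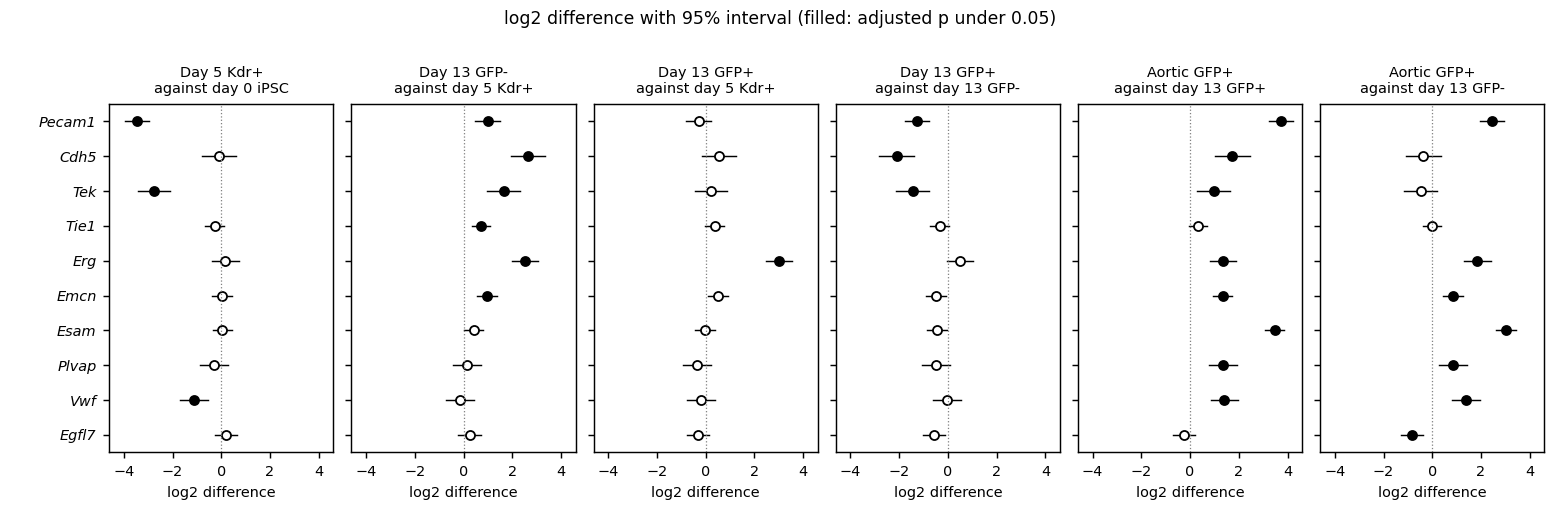
Log2 difference of each of the 10 genes (rows) in the 6 comparisons (panels, the group named first minus the other), with its 95% interval. Filled points passed at an adjusted p under 0.05: 3, 6, 1, 3, 8 and 7 genes from the left panel to the right.

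The sorted GFP+ and GFP- cells of day 13 came from cultures of the same age, and the comparison asks how the endothelial genes divide when cells are split by the smooth muscle reporter. Of the 10 genes 0 rose and 3 fell in GFP+ cells, against backgrounds of 2.02% and 2.52% of all probe sets. Cdh5, Pecam1 and Tek were lower in GFP+ than in GFP- cells by 4.3-fold, 2.43-fold and 2.71-fold. Cdh5 stood at 5.4, 4.30 and 4.62 in GFP+ samples, against 7.53, 6.47 and 6.62 in GFP- samples. Its highest GFP+ value was more than 1 log2 unit below its lowest GFP- value, and the difference was -2.10 (SE 0.329, limma adjusted p = 0.00144). Pecam1 was at 4.25, 4.19 and 4.30 in GFP+ samples, the tightest of its groups, against 5.85, 5.41 and 5.32 in GFP- samples. The difference was -1.28 (SE 0.234, limma adjusted p = 0.00481). Tek was at 2.90, 3.65 and 3.38 in GFP+ samples and 4.34, 4.96 and 4.94 in GFP- samples, a difference of -1.44 (SE 0.314, limma adjusted p = 0.0143). The Tek call was lost without GFP- sample 5 (adjusted p = 0.064), GFP- sample 6 (0.055) or GFP+ sample 3 (0.0543).

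Sample numbers 3, 5 and 6 are shared by the 2 sorts, and the deviations of equal numbers from their group means correlated across probe sets at 0.597, 0.403 and 0.397, and on this the numbers were taken as pairs, since no label says what a number marks. Unequal numbers 5 and 6 also correlated, at 0.278 and 0.345, and number 3 stood apart from both, at -0.419 to -0.5. In these pairs Cdh5 was lower in GFP+ cells by 2.13, 2.18 and 2.00 on the log2 scale. The pair differences, GFP+ minus GFP-, were -1.59, -1.23 and -1.02 for Pecam1, and -1.43, -1.32 and -1.57 for Tek. Of the 10 genes 8 were lower in GFP+ cells in 3 of 3 pairs. The exceptions were Vwf, with differences of 0.25, -0.24 and -0.10, and Erg, higher in GFP+ cells by 0.27, 0.51 and 0.70. The share of all probe sets that were lower in 3 of 3 pairs was not counted, and 3 of the 8 genes passed the test without the block. Across the groups, 8 of the 10 genes did not overlap, where 19.5% of all probe sets did not. With the pairs as a block over all cultured samples, the same 3 genes passed (Cdh5 adjusted p = 0.00147, Tek 0.00289, Pecam1 0.00946), and 5.8% of probe sets did. With the block fitted on the day 13 samples alone, a fit added after the data were seen, 8.45% of probe sets passed and 2 more of the 10 genes did. They were Erg, higher in GFP+ cells by 0.49 (SE 0.122, adjusted p = 0.0485), and Emcn, with a difference of -0.48 (SE 0.117, adjusted p = 0.0451). Without the block these 2 stood at adjusted p of 0.411 and 0.221. With array weights 6 of the genes were lower, Emcn, Esam and Egfl7 being added, while the calls over all probe sets went up as well, to 11.7% in both directions together against 4.53% without weights. Leaving out GFP+ sample 3 brought Erg past the threshold (difference 0.84, adjusted p = 0.0402).

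**Figure D3:**
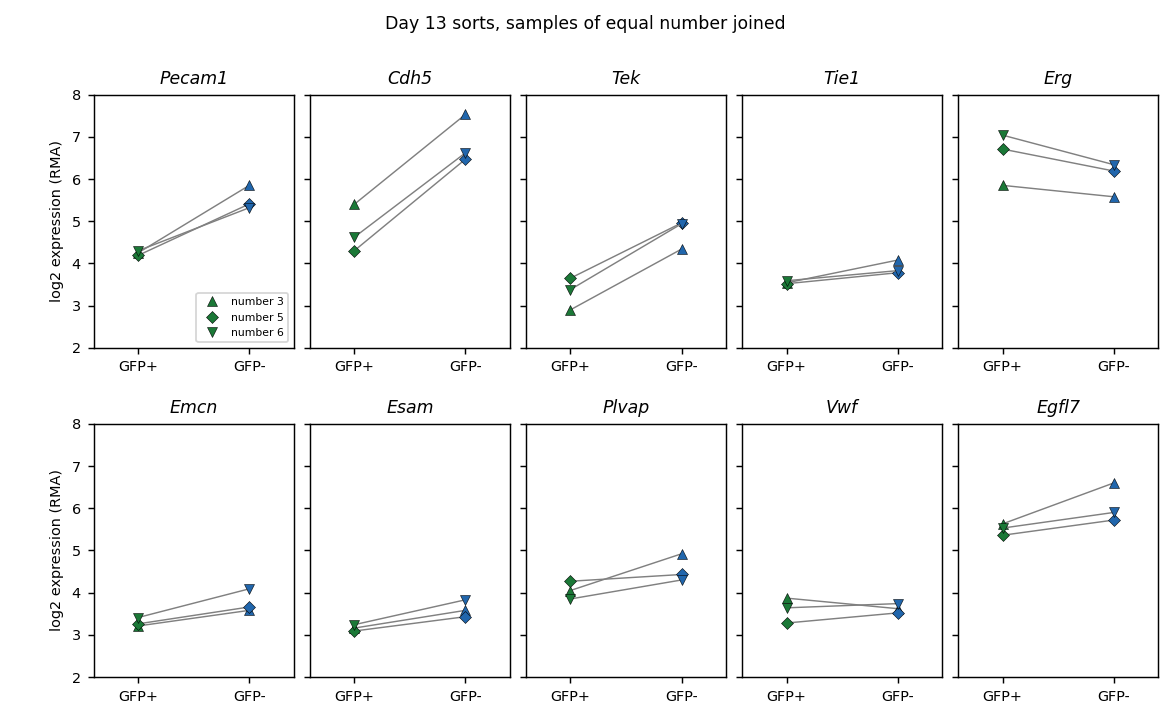
Level of each of the 10 genes (y axis, log2 RMA value) in the day 13 GFP+ and GFP- samples (x axis), with lines joining samples of equal number. The lines climb towards GFP- in 8 genes, most steeply in Cdh5, and climb towards GFP+ in Erg. The share of all probe sets with such lines was not counted.

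Other endothelial genes divided between the sorts as well, in both directions. Of 6 VEGF receptors and co-receptors 2 were higher in GFP+ cells, Nrp2 (0.98) and Eng (0.87), and 0 lower. Of 11 other junction and adhesion genes 0 were higher and 1 was lower (F11r, -0.93). Of 20 other surface and secreted genes 6 were lower and 1 higher in GFP+ cells. The higher one was Tspan18 (1.11, chosen after its values were seen). Podxl, an anti-adhesive sialomucin also made by epithelia, differed by -3.12 (limma adjusted p = 3.91e-07), Adgrl4 by -1.66, Calcrl by -1.54 and Myct1, a small membrane protein gene of endothelium, by -1.23. Of the 19 other transcription factors 1 was higher (Ets2, by 0.84) and 3 were lower, which were Sox17 (-1.10), Prox1 (-0.98) and Hhex (-0.80). Sox17 and Hhex are endoderm genes too, and epithelial genes moved with the sort. All 12 endoderm and epithelial markers were lower in GFP+ cells, with a mean level of 4.51 to 4.76 in GFP+ samples and 6.46 to 6.68 in GFP- samples, led by Apob (-3.50) and Cldn6 (-3.04). The part of these markers in the difference of Cdh5, Pecam1 and Tek was not tested. Megakaryocyte and leukocyte markers gave 0 calls of 10 and 0 of 11. The median difference over the 10 genes was -0.49, against 0.01 over all probe sets.

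The aortic GFP+ cells were the study's primary smooth muscle and were set against each day 13 sort, so the 2 comparisons share the aortic samples. Against day 13 GFP+ cells 8 of the 10 genes were higher and 0 lower, with backgrounds of 17.7% and 19.5%. In 8 genes the groups did not overlap, as in 44.9% of all probe sets. Esam was at 6.79, 6.90 and 6.20 in aortic samples, against 3.16, 3.09 and 3.24 in day 13 GFP+ samples. No sample came near the other group, and the difference of 3.47 is 11.1-fold (SE 0.188, limma adjusted p = 8.05e-10). Pecam1 was at 8.29, 7.79 and 7.88 in aortic samples and 4.25, 4.19 and 4.30 in GFP+ samples, a difference of 3.74 (SE 0.234, 13.4-fold, limma adjusted p = 4.31e-09). Cdh5 was at 5.92, 6.61 and 7.01 in aortic samples and 5.4, 4.30 and 4.62 in GFP+ samples. The difference was 1.74 (SE 0.329, limma adjusted p = 0.00054), and the groups did not overlap. Erg, which had already risen in the GFP+ cells, was higher again in aortic cells, at 7.98, 7.70 and 7.98 against 5.85, 6.71 and 7.04 (difference 1.36, SE 0.256, limma adjusted p = 0.000534).

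Vwf (difference 1.41), Plvap (1.35) and Emcn (1.33) were also higher in aortic than in GFP+ cells, with adjusted p between 4.33e-05 and 0.000904. Tek was at 3.69, 4.03 and 5.11 in aortic samples and 2.90, 3.65 and 3.38 in GFP+ samples, so that the lowest aortic value was close to the highest GFP+ value. Its difference of 0.97 (SE 0.314, limma adjusted p = 0.0238) lost its call without aortic sample 3 (adjusted p = 0.13), without GFP+ sample 3 (0.0997), with array weights (0.053) and with only these 2 groups in the fit (0.0704). Tie1 and Egfl7 differed by 0.33 and -0.26, with adjusted p of 0.169 and 0.374. Leaving out aortic sample 2 brought Tie1 past the threshold (adjusted p = 0.0179). The median difference over the 10 genes was 1.35, against 0.07 over all probe sets.

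Against day 13 GFP- cells, 6 of the 10 genes were higher in aortic cells and 1 was lower, with backgrounds of 20.2% and 21.7%. In 6 genes the groups did not overlap, as in 47% of all probe sets. Esam (difference 3.02, SE 0.188, 8.11-fold), Pecam1 (2.46, SE 0.234, 5.51-fold), Erg (1.85, SE 0.256), Vwf (1.38, SE 0.267), Emcn (0.85, SE 0.192) and Plvap (0.85, SE 0.27) were higher, with limma adjusted p between 3.05e-09 and 0.0188. Plvap overlapped between the groups, at 4.61, 5.82 and 5.78 in aortic samples and 4.92, 4.43 and 4.30 in GFP- samples. Its call was lost with only the 2 groups in the fit (adjusted p = 0.0806) and in 4 of the 6 fits without 1 sample, those without GFP- sample 5 or 6 or without aortic sample 2 or 3 (0.0601, 0.0746, 0.0938 and 0.0905). Egfl7, a secreted protein gene of developing vessels, was the one lower gene, at 4.75, 5.53 and 5.46 in aortic samples and 6.60, 5.72 and 5.90 in GFP- samples (difference -0.83, SE 0.215, limma adjusted p = 0.00567). Its call was lost with only the 2 groups in the fit (adjusted p = 0.0551). Cdh5, Tek and Tie1 differed by -0.36, -0.47 and -0.02, with 95% intervals of -1.06 to 0.34, -1.14 to 0.20 and -0.40 to 0.36. Without aortic sample 3 Tek passed as lower in aortic cells (difference -0.89, adjusted p = 0.0155). The genes of VE-cadherin and of both TIE receptors thus gave no call over all samples, whereas Esam and Pecam1 lay far apart.

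Markers of other cells were read in the aortic comparisons too. Of all probe sets 17.7% were higher and 19.5% lower than in GFP+ cells, and 20.2% and 21.7% than in GFP- cells. Of 11 measured leukocyte markers, 7 were higher in aortic than in day 13 GFP+ cells and 8 than in GFP- cells, and 0 were lower in either. Their mean level was 4.43 to 4.87 in aortic samples, 3.62 to 3.73 in GFP+ samples and 3.55 to 3.64 in GFP- samples. The largest differences from GFP+ cells were in Cd14 (3.28) and Ptprc (1.72), the common leukocyte antigen, which was at 3.34 to 3.71 in aortic samples and 1.74 to 1.93 in GFP+ samples. Of 10 megakaryocyte and platelet markers 2 were higher and 1 lower in each comparison, near or below the shares of all probe sets. Of 10 pericyte and fibroblast markers 6 were higher and 1 lower than in GFP+ cells, and 8 were higher and 0 lower than in GFP- cells, led by Abcc9 (5.84 and 6.18), a channel subunit of mural cells. Their mean level was 8.91 to 9.30 in aortic samples, 6.86 to 7.69 in GFP+ samples and 5.92 to 6.94 in GFP- samples. Of the 12 endoderm and epithelial markers 3 were lower than in GFP+ cells, near the share of all probe sets. All 12 were lower than in GFP- cells, with a mean level of 4.02 to 4.33 in aortic samples. The part of these 4 marker lists in the aortic differences of the 10 genes was not tested. Among other endothelial genes, 6 of 11 junction and adhesion genes were higher and 1 lower in aortic than in GFP+ cells, including the selectins Sele (2.21) and Selp (1.20), which are made by activated endothelium, and Icam2 (1.39). Of 20 surface and secreted genes 9 were higher and 1 lower, led by Thbd (3.14), the thrombomodulin gene. Of the 19 other transcription factors 9 were higher and 2 lower, led by Klf2 (3.96) and Klf4 (3.52), the shear-responsive factors that vascular muscle also uses. Of 6 VEGF receptors and co-receptors 1 was higher (Flt1, 0.76) and 2 were lower, Nrp2 (-3.54) and Kdr (-1.39). Against GFP- cells 7 of 11 junction genes were higher and 1 lower. The next lists were more mixed than against GFP+ cells: 7 of 20 surface and secreted genes were higher and 5 lower. Of the 19 transcription factors 5 were higher and 5 lower. Of the 6 VEGF receptors and co-receptors 2 were higher and 2 lower than in GFP- cells. Further genes known from endothelium, chosen after their values were seen, gave no call between aortic and GFP+ cells, with differences of 0.33 in Cldn5, 0.03 in Nos3, 0.23 in Robo4 and 0.22 in Tal1.

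The ligands and the phosphatase of the TEK system were measured beside its receptors. Angpt1, the agonist that mural cells supply, averaged 2.09 at day 0, 2.70 at day 5, 5.83 in day 13 GFP+ cells and 6.99 in day 13 GFP- cells, and 5.58 in aortic cells. Its rise over day 5 was 3.13 in GFP+ cells and 4.29 in GFP- cells, and it was lower in GFP+ than in GFP- cells by 2.23-fold (difference -1.16, SE 0.164, limma adjusted p = 0.000671). Angpt2, the context-dependent ligand stored by endothelial cells, was at 8.0, 8.13 and 8.08 in aortic samples, against 4.82, 4.82 and 4.45 in GFP+ samples and 6.22, 5.71 and 5.45 in GFP- samples. The aortic level was 10.4-fold above GFP+ cells (difference 3.37, SE 0.208, limma adjusted p = 3.62e-09), and GFP+ cells were below GFP- cells (difference -1.09, limma adjusted p = 0.0059). Ptprb, the phosphatase VE-PTP that acts on TEK and binds VE-cadherin, averaged 6.10 in aortic cells, 4.69 in GFP+ cells and 4.72 in GFP- cells. It differed between aortic and GFP+ cells by 1.41 (SE 0.252, limma adjusted p = 0.000335), while the 2 sorts differed by -0.02. Angpt4, a further ligand of TEK, ran the other way, at 4.61, 4.80 and 5.06 in GFP+ samples and 4.34, 4.28 and 4.44 in GFP- samples, with no overlap. Its difference of 0.47 (SE 0.173) did not pass without the block (limma adjusted p = 0.175), passed with the pairs as a block over all cultured samples (0.0307), and missed on the day 13 samples alone (0.0502). Svep1, an extracellular protein, differed by 0.82 and passed only with the block (limma adjusted p = 0.0195, against 0.323 without it). Tie1 gave no call between the sorts (difference -0.34, limma adjusted p = 0.406). Foxo1, a transcription factor that TEK signalling holds back, was higher in GFP+ cells by 0.96 (limma adjusted p = 0.000143).

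**Figure D4:**
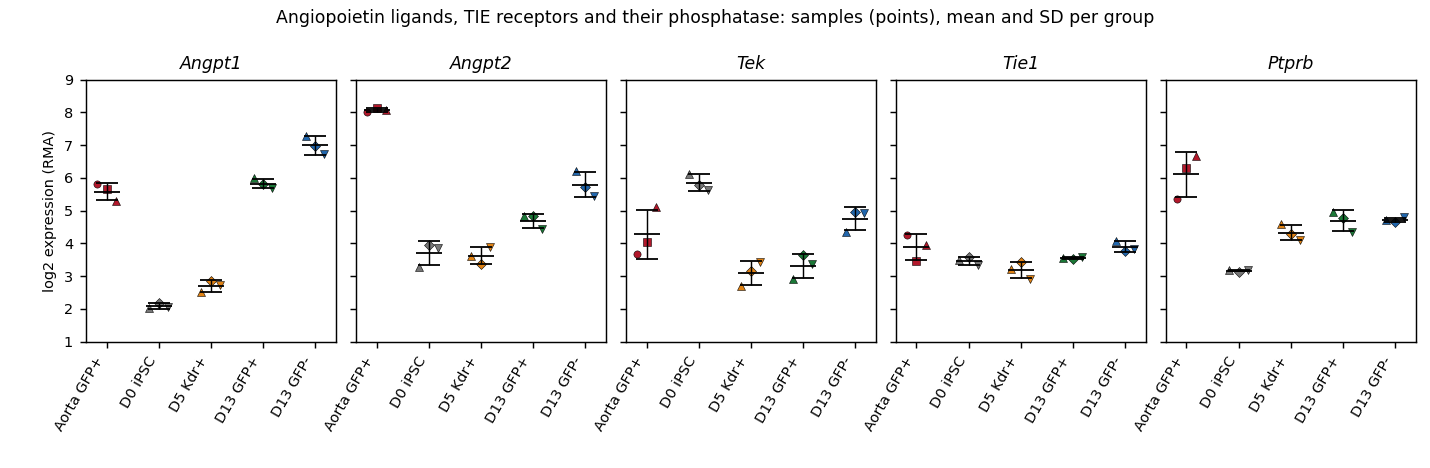
Level (y axis, log2 RMA value) of the angiopoietins Angpt1 and Angpt2, the receptors Tek and Tie1 and the phosphatase Ptprb in each sample (points) of the 5 groups (x axis), with mean and SD (n = 3). Angpt2 is at 8.0 to 8.13 in the 3 aortic samples and at 6.22 or lower elsewhere, and Tek is highest at day 0.

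The order of the 5 groups differed between Pecam1, Cdh5 and Erg. Pecam1 was equally high in aortic and day 0 cells (both 7.99), next in GFP- cells (5.52), and lowest at day 5 (4.53) and in GFP+ cells (4.24), where the ranges overlap. Vwf likewise was highest in aortic (5.01 ± 0.769) and day 0 cells (4.90 ± 0.135; SD, n = 3), with overlapping ranges. Cdh5 was highest in GFP- (6.87) and aortic cells (6.51), which overlap, while GFP+ (4.77), day 0 (4.34) and day 5 cells (4.23) formed a lower set with overlapping ranges. Erg was highest in aortic cells (7.89), followed by the overlapping GFP+ (6.53) and GFP- cells (6.04), with day 5 (3.51) and day 0 (3.34) overlapping at the bottom. Tek had its highest level at day 0 (5.85), above the overlapping GFP- (4.75) and aortic cells (4.28). Esam was highest in aortic cells (6.63), with means of 3.16 to 3.61 in the other 4 groups. Emcn was highest in aortic cells (4.63), then in GFP- (3.78), GFP+ (3.30) and day 5 cells (2.80), with no overlap between those neighbours, and day 0 (2.79) overlapped day 5. Tie1 stayed within means of 3.19 and 3.90, every neighbour in its order overlapping the next. Egfl7 ranged from 5.25 in aortic cells to 6.07 in GFP- cells, and Plvap from 4.06 in GFP+ cells to 5.4 in aortic cells.

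The aortic samples were uneven for several genes. Aortic sample 1 held the lowest of the 3 values for 6 of the 10 genes and aortic sample 3 the highest for 5. Vwf was at 4.26, 4.98 and 5.79, Plvap at 4.61, 5.82 and 5.78, and Tek at 3.69, 4.03 and 5.11, whereas Erg stayed within 7.70 to 7.98.

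The genes most like each of the 10 were found by Pearson's r over the 15 samples among 7993 named probe sets with an SD of at least 0.5. These r values describe 15 samples in 5 groups, whose means set most of them, so they carry no test. Erg was most like Gucy1b1 (0.992), a subunit of the nitric oxide receptor of smooth muscle, Mgp (0.991), the matrix Gla protein, and Epha3 (0.989). Mgp, for example, averaged 11.35 in aortic cells, 5.16 at day 0, 4.93 at day 5, 9.66 in GFP+ cells and 8.50 in GFP- cells. These are not genes of the endothelial lists. Cdh5 was most like Adgrl4 (0.964), an adhesion receptor of endothelial cells, and Hs3st1 (0.947). Tek was most like Mmrn2 (0.924), an endothelial matrix protein, followed by Slc44a4 (0.908) and Eml5 (0.907). Pecam1 was most like Eps8l2 (0.975), Plvap like Ifi207 (0.904), Tie1 like Arntl2 (0.849) and Egfl7 like Fignl2 (0.827). The mean of the 10 genes was most like Mir1931 (0.944), Dtna (0.943) and Rasal2 (0.942). From Slc44a4 to Rasal2, none of these neighbours is in the endothelial lists. Emcn had Angpt2 among its 3 nearest (0.944), after Gm10400 (0.951) and Selenop (0.946). Esam lay nearest to Fmo1 (0.991) and Adamts8 (0.986), which share its high level in aortic cells alone. Vwf lay nearest to Rgs1 (0.949) and Lilrb4a (0.936), both known from leukocytes, and then Ampd3 (0.934). Like Vwf, these genes averaged higher at day 0 and in aortic cells than in the other groups. Rgs1 averaged 3.32 at day 0 and 3.49 in aortic cells, and Lilrb4a 4.61 and 5.12. Among the 10 genes themselves the closest pair was Erg and Emcn (0.87), followed by Emcn and Esam and by Pecam1 and Vwf (both 0.83), and Erg and Pecam1 were at 0.09.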

How the data were processed

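Total RNA from 15 mouse samples in 5 groups of 3 was hybridised to Affymetrix Mouse Gene 2.0 ST arrays, per the labels. The authors deposited log2 values, and the submitters' processing notes name RMA, the affy package (1.36.1) and R (2.15.1). That scale was read from the values. No genome build is given in the sources used here. The 25206 probe sets are named by Entrez Gene ID, and 23740 were matched to 1 symbol in the tables used. No filter was applied, and 0 pairs of samples were identical. Sample medians lay between 4.08 and 4.29.

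The 15 samples entered a single limma fit (3.58.1, R 4.3.3) of group means, with moderated variances (10 residual and 5.09 prior degrees of freedom) and p-values adjusted by Benjamini-Hochberg within each comparison at 0.05. The fit was tested on simulated data. Errors are SE unless SD is named. Every one of the 10 genes was described, and up to 4 genes with the largest difference past the threshold from each other list. The members and lists were chosen with earlier results of these data known. Equal sample numbers paired the day 13 sorts (r of 0.397 to 0.597) but not other stages (r of -0.091 to 0.079). The alternatives were a 2-group fit, array weights, trended and robust moderation, 3 scalings, a filter on mean level, a replicate block and leaving out each sample.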

Additional observations from a re-analysis of the deposited data

How the results depend on the processing

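Of the differences of the 10 genes in the 6 comparisons, 28 passed the threshold. They were read again under 367 alternative values: 354 kept direction and call, 13 lost the call and 0 turned. The lost calls were of Tek, Plvap and Egfl7 in the comparisons named above. Of 433 values of the 32 other differences, 399 stayed without a call, 16 passed and 18 turned sign; the cause was not tested. With probe sets above the median mean level only, Tek, Tie1, Emcn, Esam and Vwf drop out of the test, which left 1 gene lower at day 5, 3 higher in GFP- cells than at day 5, and 4 and 3 higher in aortic than in GFP+ and GFP- cells. Of the probe sets kept, 48.7%, 49.4%, 57.1% and 62.5% were called in these 4 comparisons, against 28.8%, 26.0%, 37.2% and 41.9% of all probe sets unfiltered. With only 2 groups fitted, 2 genes were higher in GFP+ cells than at day 5 and 0 lower in aortic than in GFP- cells. Of all probe sets 34.2% and 31.8% were called in these 2-group fits, against 31.2% and 41.9% with all groups. Array weights gave 3 higher and 1 lower in GFP+ cells than at day 5 and 6 lower in GFP+ than in GFP- cells. With weights 40.6% and 11.7% of all probe sets were called, against 31.2% and 4.53% without them. The replicate block gave 2 higher in GFP+ cells than at day 5, with Emcn added (limma adjusted p = 0.0353). Of all probe sets 33.5% were then called, against 31.2% without the block. Equal numbers, however, did not deviate together between those groups (r of 0.0224 to 0.0559). Fitted on day 13 alone, the block gave 1 higher in GFP+ than in GFP- cells, with 8.45% of all probe sets called against 4.53%. The block changed no other count by over 1.5 times. No paired analysis was possible for the aortic comparisons because the aortic samples (1, 2 and 3) share only number 3 with the cultured ones (3, 5 and 6), and no label ties the 2. Without 1 sample, 3 to 3 genes were lower at day 5 than at day 0, and 6 to 6 higher in GFP- cells than at day 5. In GFP+ cells 1 to 2 were higher and 0 to 1 lower than at day 5. Between the sorts 0 to 1 were higher and 2 to 3 lower in GFP+ than in GFP- cells. In aortic cells 7 to 9 were higher than in GFP+ cells, and 5 to 6 higher and 1 to 2 lower than in GFP- cells. Of all probe sets at least 24.4%, 21.9%, 27.4%, 2.59%, 31.3% and 36.5% were then called in these 6 comparisons. With all samples 28.8%, 26.0%, 31.2%, 4.53%, 37.2% and 41.9% were called. The share rose only without GFP- sample 3 (GFP- cells against day 5) and without aortic sample 1 (both aortic comparisons).

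The signs that turned were all of differences that had not passed; the values without 1 sample are given as ranges. Between day 5 and day 0, Cdh5 came to 0.04 with array weights and -0.28 to 0.06 without 1 sample, Emcn to -0.06 with weights and -0.13 to 0.10, and Esam to -0.11 to 0.16. Between GFP- cells and day 5, Plvap came to -0.04 with weights and -0.03 to 0.28, and Egfl7 to -0.01 to 0.43. Between GFP+ cells and day 5, Esam came to -0.11 to 0.12. Between GFP+ and GFP- cells, Vwf came to -0.17 to 0.13. Between aortic and GFP- cells, Tie1 came to 0.07 with weights and -0.20 to 0.19. Scaling moved a sample median by at most 0.106 with median centring, 0.107 with repeated quantile normalization and 0.151 with cyclic loess. With 3 arrays a group, their number limits the precision, and signal over background is unknown.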

Other observations

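Egfl7 carries the gene of the microRNA miR-126 inside it, and the array holds a probe set for that microRNA gene, Mir126a (chosen after its values were seen). It lay between 1.36 and 1.85 in all 15 samples, below the sample medians of 4.08 to 4.29. Such values are not shown to lie above background, so neither absence nor constancy of the microRNA can be read from them.

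Genes of arterial, venous and lymphatic vessels were read beside the 10 genes. Between aortic and day 13 GFP+ cells 5 of 17 were higher and 5 lower, where 17.7% and 19.5% of all probe sets were. Hey2, a Notch target, was higher by 4.11 and Gja4, a gap junction gene of arteries, by 3.74. Lyve1 and Nr2f2 of the same list were also higher, by 2.64 and 2.63. Pdpn, a lymphatic and mesothelial glycoprotein, was lower by 3.01 on the log2 scale. For these genes the limma adjusted p lay between 1.01e-11 and 6.86e-06. Between GFP+ and GFP- cells of day 13, 0 of the 17 were higher and 3 lower, against 2.02% and 2.52% of all probe sets. The 3 were Hey2 (-1.15), Prox1 (-0.98) and Efnb2 (-0.69).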
